A study of Aspergillus nidulans with 2 samples.

Results

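Citrate sits where mitochondrial respiration meets the building of lipids. The genes described here are 4 of the enzymes that make it or consume it in the filamentous fungus Aspergillus nidulans (Emericella nidulans): cit1 (citrate synthase), mcsA (methylcitrate synthase), acoA (aconitase) and aclA (ATP citrate lyase). They were chosen by gene symbol in the platform annotation of the arrays, with their ratios in these data already known, so their ratios are given as a description and were not tested. The 4 genes, of 2064 that the annotation names, are represented by 8 of the 3533 probes. Of these 8 probes, 7 held a ratio on both arrays and 1, for acoA, was empty on both.

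Mycelia of strain FGSC 26 were grown for 18 h at 37 °C in minimal-nitrate medium with yeast extract and then moved to fresh minimal-nitrate medium. Cultures exposed to 0.8 mM menadione, given as its sodium bisulfite compound, for 6 h were compared with cultures left untreated in the same medium for the same time. Menadione is a quinone that generates superoxide inside cells by redox cycling. RNA of both kinds of culture was hybridised together to 2-colour cDNA arrays, with menadione RNA labelled with Cy5 in the flip hybridisation and Cy3 in the flop one. The sources used here do not state whether both arrays carried RNA of separate cultures, so the SD over 2 arrays given with each mean, and the spread behind each limma p-value, may be technical only. Precision is limited by there being only 2 arrays.

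Each deposited value is a normalized log ratio, read here as log2 of menadione over untreated. Neither the base nor the direction is stated. Menadione RNA is the first channel of both samples, which makes this direction likely. The opposite direction would exchange positive and negative throughout. If both columns were instead red over green, the treatment would run in opposite directions on the 2 arrays. Treatment differences alone would then give a negative correlation of the arrays. The Pearson r over the 2265 probes with both values was 0.844. What a dye bias shared by both arrays adds to it was not tested. A ratio is a difference between cultures and not a transcript level. In whole mycelium, less RNA per cell cannot be told apart from fewer cells that express the gene.

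Citrate synthase joins acetyl-CoA to oxaloacetate and opens the tricarboxylic acid cycle in the mitochondrion. Methylcitrate synthase, a related protein, joins propionyl-CoA to oxaloacetate and in A. nidulans keeps toxic propionyl-CoA low. Aconitase, whose iron-sulfur cluster is known to be sensitive to superoxide, turns citrate into isocitrate. ATP citrate lyase acts in the cytosol, where it cleaves exported citrate into oxaloacetate and acetyl-CoA for fatty acid and sterol synthesis.

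The 2 enzymes that build citrate or methylcitrate held all the strongly negative ratios among the 4 genes, whereas the probes of the 2 enzymes that use citrate were all positive. Both cit1 probes and 1 mcsA probe lay between -2.65 and -3.43 as means of both arrays. The other mcsA probe, both measured acoA probes and the aclA probe lay between 0.23 and 1.02. Over all pairs of probes assigned to 1 gene, described below, 47.7% had means of opposite sign and the median difference was 0.80. The sign of the ratio of a single probe is therefore a weak guide to its gene. The pairs were not split by size of ratio, so whether large ratios are a better guide was not tested. All 7 measured probes had the same sign on both arrays, 4 positive and 3 negative, against 82.2% of all probes with 2 values. The median of the 7 probe means was 0.23, against 0.04 over all 2265 probes with both values.

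**Figure D1:**
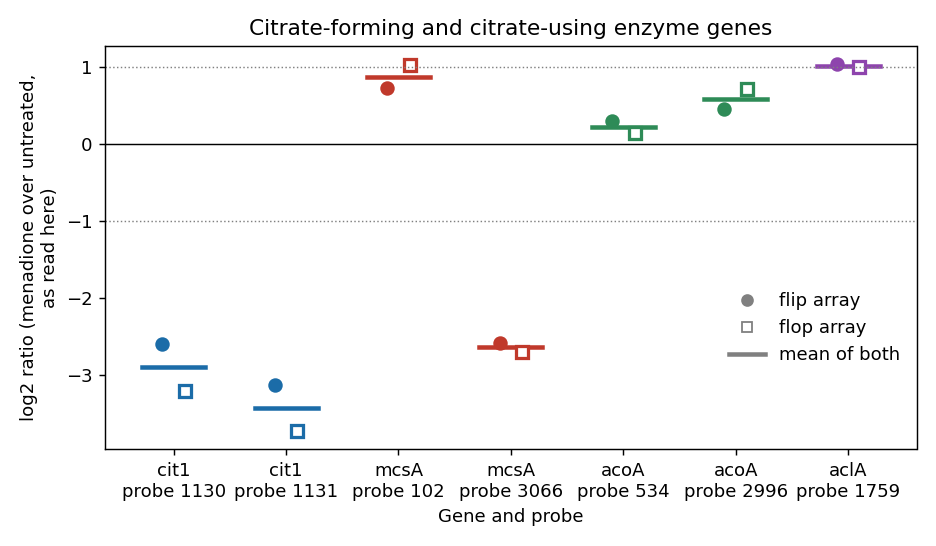
Log2 ratio (vertical axis, menadione over untreated as read here) of each of the 7 measured probes (horizontal axis) on the flip array (filled circles) and the flop array (open squares), with the mean of both as a bar; dotted lines mark 2-fold. Both cit1 probes and mcsA probe 3066 lie below -2.5 on both arrays, and the other 4 probes lie between 0.15 and 1.04.

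Citrate synthase had the lowest ratios. Probe 1130 of cit1 (locus ANIA_08275) was at -2.60 (flip array) and -3.21 (flop array), a mean of -2.91 ± 0.43 (SD, n = 2). Probe 1131 of cit1 was at -3.13 (flip array) and -3.73 (flop array), a mean of -3.43 ± 0.42. These means correspond to ratios 7.49-fold and 10.8-fold below equality if the logarithm has base 2. Among all 2265 probes with both values, ordered from the lowest mean, they ranked 30 and 18. Probe 1131 was lower than probe 1130 by nearly the same amount on both arrays, a difference of 0.53 (flip array) and 0.52 (flop array). Both probes were further from 0 on the flop array, by 0.61 and 0.60, and 78.6% and 78.1% of all probes differed less between their 2 arrays. The SD of all ratios was also larger on the flop array, 1.16 against 0.956 on the flip array.

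Methylcitrate synthase gave 2 discordant readings. Probe 3066 of mcsA (locus ANIA_06650) was at -2.59 (flip array) and -2.70 (flop array), a mean of -2.65 ± 0.08 (SD, n = 2), rank 37 from the lowest of all probes. Probe 102 of mcsA was at 0.73 (flip array) and 1.03 (flop array), a mean of 0.88 ± 0.21. The probes thus pointed in opposite directions on both arrays. Probe 102 exceeded probe 3066 by 3.32 on the flip array and by 3.73 on the flop array, more than the difference of either probe between arrays, 0.30 and 0.11. The 2-array mean of the gene, taken over both probes, would describe neither. The clone sequences were not used here, so which probe reports mcsA transcript was not tested. The ratio of probe 3066 lay close to that of the cit1 probe 1130, with a gap of 0.01 (flip array) and 0.51 (flop array). This closeness was not particular to cit1. Over both arrays together, a probe of another gene, rom2, was nearer, at -2.47 (flip array) and -2.44 (flop array). The other cit1 probe, 1131, was further away, at -3.13 and -3.73. Whether cDNA of the related cit1 gene contributed to probe 3066 was not tested.

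Both measured probes of aconitase had positive ratios below 2-fold. Probe 534 of acoA (locus ANIA_05525) was at 0.30 (flip array) and 0.15 (flop array), a mean of 0.23 ± 0.11 (SD, n = 2). Probe 2996 of acoA was at 0.46 (flip array) and 0.72 (flop array), a mean of 0.59 ± 0.18. Neither probe reached 2-fold on either array, and the 2 arrays of one probe did not overlap those of the other. The third acoA probe, 970, is empty on both arrays, as are 482 probes in all.

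The single aclA probe, 1759 (locus ANIA_02435), had the highest mean of the 4 genes. It was at 1.04 (flip array) and 1.00 (flop array), a mean of 1.02 ± 0.03 (SD, n = 2), or 2.03-fold above equality. Its arrays differed by 0.04, and 7.68% of all probes differed less. The ratio of aclA stood at rank 258 from the highest of 2265. No second probe of aclA is annotated, so no other probe checks this value.

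The order of the probe means, from the lowest, was cit1 probe 1131, cit1 probe 1130, mcsA probe 3066, acoA probe 534, acoA probe 2996, mcsA probe 102 and aclA. The 2 cit1 probes overlapped in their single-array values, as did cit1 probe 1130 with mcsA probe 3066. The values of mcsA probe 102 and aclA also overlapped, and their order differed between the arrays. The widest step in the order, 2.87, separated mcsA probe 3066 from acoA probe 534 and was nearly equal on both arrays, at 2.89 (flip) and 2.85 (flop). Set side by side within each array, mcsA probe 102 was above acoA probe 2996 by 0.27 (flip) and 0.31 (flop), although the nearest values of the 2 probes, 0.73 and 0.72, came from different arrays.

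By size, 4 of the 7 measured probes were 2-fold or more from equality on each array, with 1 sign. These were the 2 cit1 probes and mcsA probe 3066, which were negative, and aclA, which was positive and at the limit itself. With each array centred on its median, aclA was at 1.06 (flip) and 0.90 (flop), below the limit on the flop array, and the count was 3. Among all 2265 probes with both values, 18.2% met this limit, 8.83% with positive and 9.36% with negative ratios. Nothing is read from this difference, since the genes were chosen with these ratios known.

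**Figure D2:**
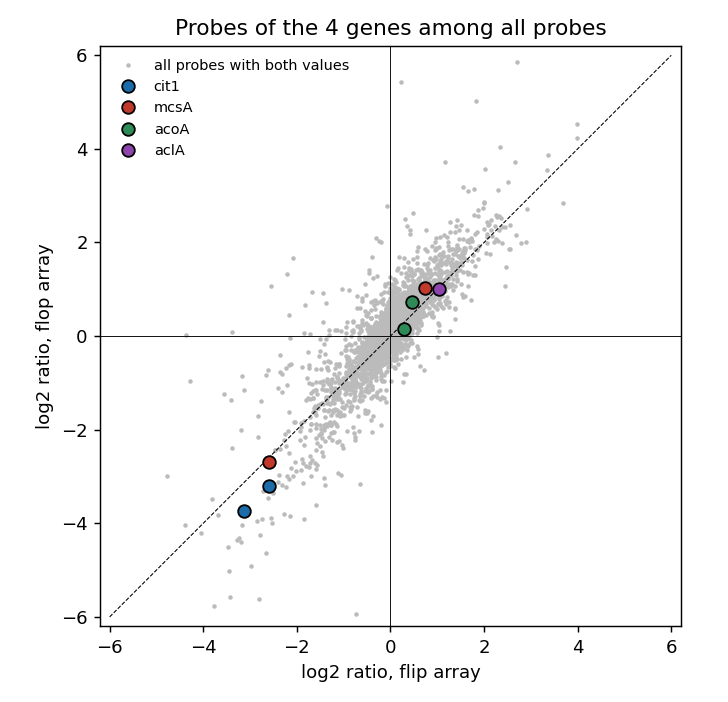
Log2 ratio on the flop array (vertical axis) against that on the flip array (horizontal axis) for all 2265 probes with both values (grey) and the 7 probes of the 4 genes (coloured); the dashed line marks equality of the arrays. The cit1 probes lie below the line at the negative end, mcsA has 1 point beside them and 1 near the aclA point, and the aclA point lies on the line within 0.04.

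Probes assigned to one gene were compared across the arrays to see how the paired probes of cit1, mcsA and acoA stand among others. There were 388 pairs of probes from 285 genes, and their 2-array means differed by a median of 0.80. The mcsA pair differed by 3.53, the eighth largest difference of these 388 pairs. The cit1 pair differed by 0.53, and 36.3% of pairs differed less. The acoA pair differed by 0.37, and 24.7% of pairs differed less. The means had opposite signs, as in mcsA, in 185 of the 388 pairs (47.7%).

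In 2 of the 388 pairs both means were 4-fold or more from equality and shared their sign. These were the cit1 pair and that of hel10, whose probes were at 2.21 and 2.16. Large ratios were themselves few, since 157 of all 2265 probes passed a 3-fold limit on each array with 1 sign. Pairs with a single probe past 4-fold were not counted, so whether agreement is rare at such ratios was not tested. Nothing is read from the place of cit1 here, since it was chosen with its ratios known. The 2 cit1 probes have consecutive numbers. Over the 41 pairs with consecutive numbers the median difference was 0.65, against 0.81 over the other 347 pairs. The sources used here say neither what the numbering stands for nor whether the 2 cit1 probes are different clones.

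**Figure D3:**
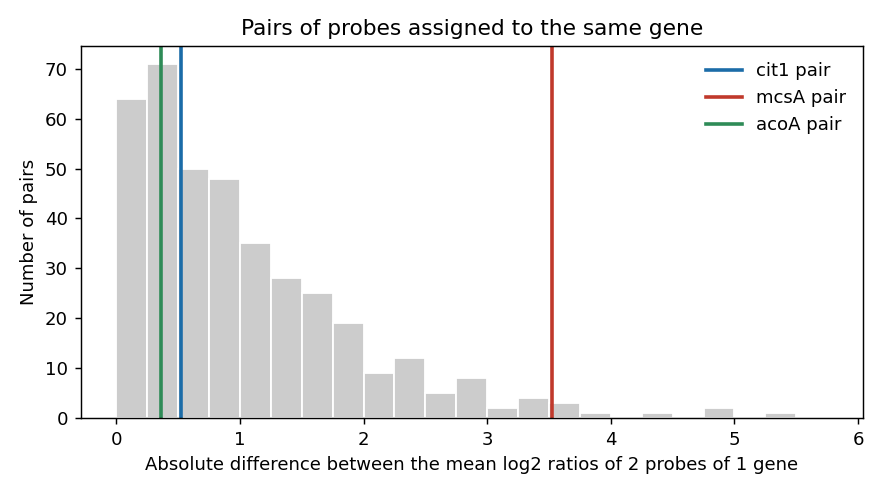
Number of pairs of probes assigned to the same gene (vertical axis) by the absolute difference between their mean log2 ratios (horizontal axis), over 388 pairs; lines mark the pairs of cit1, mcsA and acoA. The acoA and cit1 pairs, at 0.37 and 0.53, lie below the median of 0.80, and the mcsA pair, at 3.53, lies in the upper tail.

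Other genes of citrate and acetyl-CoA metabolism were looked up by symbol in 3 lists, and their ratios were tested against 0 with limma over all 2265 probes (Benjamini-Hochberg adjustment). In this fit 24.6% of probes passed an adjusted p of 0.05, 12.2% with positive and 12.4% with negative ratios. The smallest adjusted p of the limma fit was 0.0351, a value that probes with different unadjusted p-values can share. Of 37 listed symbols of the tricarboxylic acid cycle and its refilling reactions, 0 were on the array beyond the 4 genes. Most genes carry a locus tag alone, so this says nothing about whether such genes are represented. Of the glyoxylate, acetyl-CoA and methylcitrate list 3 genes were found, and of the list of uses of cytosolic acetyl-CoA 2 were found. Together they had 8 probes, of which 5 held both values. Of these 5, 1 passed with a positive ratio and 1 with a negative ratio, and their median was -0.12.

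The probe that passed with a positive ratio was acuF probe 532, for phosphoenolpyruvate carboxykinase, which withdraws oxaloacetate from the cycle for gluconeogenesis. It was at 2.91 and 2.71 on the flip and flop arrays, a mean of 2.81 ± 0.14 (limma adjusted p = 0.0351). The other acuF probe, 2493, was at -1.02 on the flip array and empty on the flop array, so acuF, like mcsA, had probes of opposite sign. The regulator genes of gluconeogenesis and acetate use did not pass: acuM was at -0.31 and 0.00 (limma adjusted p = 0.497) and facB at -0.10 and -0.13 (adjusted p = 0.539).

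Downstream of aclA, hmg1 encodes HMG-CoA reductase, which commits acetyl-CoA units to sterol synthesis. The hmg1 probe was at -1.20 and -1.21 on the flip and flop arrays, a mean of -1.21 ± 0.01 (limma adjusted p = 0.0351). Its ratio was thus negative where that of aclA was positive, on both arrays. The gene idi1, for isopentenyl diphosphate isomerase of the same pathway, was at 0.46 and 0.45 (adjusted p = 0.101). A second idi1 probe held only a flip value, 0.59.

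The neighbours of the 4 genes in the RefSeq gene order of assembly ASM1142v1 were read from the same arrays, up to 3 genes on each side. Of these 24 neighbouring genes 8 had a probe, and 13 of their probes held both values. None of the 13 was at least 2-fold negative on both arrays, and 2 were at least 2-fold positive. Among all 2265 probes with both values, 9.36% were so negative and 8.83% so positive. With 13 probes, several of them of the same gene, nothing is read from these counts. The probes beside cit1 lay between -0.22 and 1.84, so none of the 3 neighbours measured, all on the same side, was as low as cit1. Beside mcsA the neighbouring probes lay between -0.29 and 3.45. Of the 4 probes of ANIA_06653, 3 genes away from mcsA, 3 lay between 0.56 and 1.04 and 1 at 3.45, all positive. Beside acoA the probes with both values lay between 0.38 and 0.73, near acoA itself. Another probe of the gene at 0.38, ANIA_05523, held only a flip value, -0.24. Beside aclA, 2 probes of 1 gene were at -0.12 and -0.03, and the gene next to aclA on either side had no probe.

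**Figure D4:**
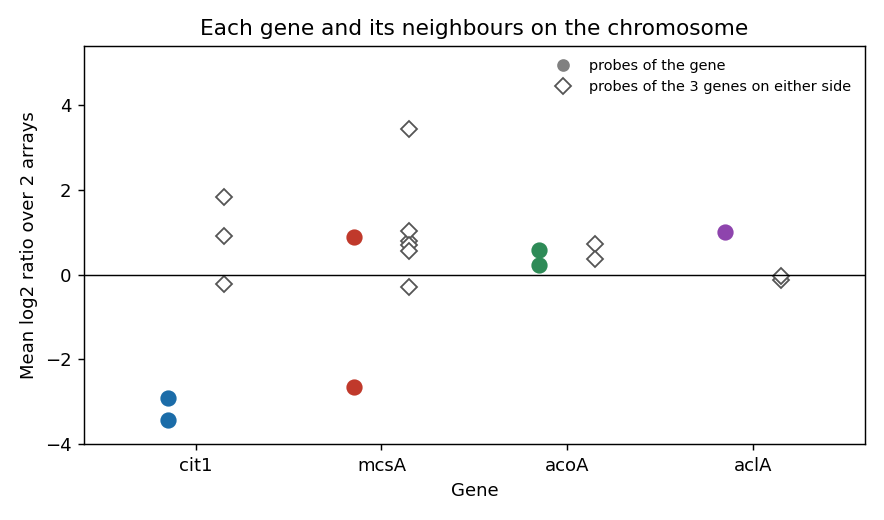
Mean log2 ratio over 2 arrays (vertical axis) of the probes of each gene (filled circles) and of the probes of the 3 genes on either side of it (open diamonds), by gene (horizontal axis). The 3 neighbouring probes of cit1 lie between -0.22 and 1.84, above both cit1 probes, and those of acoA lie within 0.38 to 0.73.

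The probes with a symbol whose pair of ratios was nearest to each of the 7 were taken by Euclidean distance over the 2 arrays, among 275 such probes. For cit1 probe 1130 the nearest was mcsA probe 3066, at a distance of 0.51, followed by chl1, a DNA helicase gene (0.67), and rom2 (0.78). For cit1 probe 1131 the nearest was rpp1, at 0.63. For mcsA probe 3066 rom2 was nearest, at 0.29, followed by pkaC, the catalytic subunit of protein kinase A (0.51). In both cases the rom2 probe was 1650. The other rom2 probe, 2261, was at 0.12 (flip array) and 0.67 (flop array). Few probes lie at such low ratios, and the distances there were larger than elsewhere. For mcsA probe 102 and for aclA the nearest probes were 2 different probes of rgsA, a regulator of G protein signalling, at distances of 0.10 and 0.06. The aclA probe was followed by skpA, a subunit of ubiquitin ligases, at 0.10. For acoA the nearest were sC, the ATP sulfurylase gene, to probe 2996 (0.02), and nscA to probe 534 (0.03).

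Of 7 genes of asexual development, a state that mycelium can enter, 5 were on the array and 3 had both values. The regulator abaA was at -0.86 and -1.13 (limma adjusted p = 0.0425), the spore coat gene rodA at -0.68 and -0.53 (adjusted p = 0.0713) and wetA at 0.26 and 0.92 (adjusted p = 0.156). The master regulator brlA was empty on both arrays at both of its probes. The part of development in the ratios of the 4 genes was not tested.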

How the data were processed

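Images came from a GenePix 4000B scanner and ratios from GenePix Pro 3.0, and the authors applied LOESS within each block in SAS version 8, per the series' design text. The sources used here do not say how duplicate spots were combined, whether background was subtracted or why cells are empty. The deposited values were taken as log2 ratios. Scanner files were not used here, so signal over background is unknown. The flip array holds 3049 values and the flop array 2267.

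Ratios of the 2265 probes with both values were fitted with limma 3.58.1 in R 4.3.3 (lmFit, eBayes, Benjamini-Hochberg adjustment, threshold 0.05), a procedure checked on simulated data. Each p-value rests on 2 arrays of exchanged dyes that may carry 1 pair of RNA extracts, and then says nothing of the spread between cultures. Probes were named from the platform annotation, which is old, and all 8 probe symbols matched RefSeq by gene ID. No coordinates or sequences are given, since no sequence table was used. The named probes were those of the 4 genes, those of the lists, the 3 nearest probes with a symbol and the 3 neighbouring genes on each side; of the nearest, those told in the text are a selection. The symbol hmgA was left out of its list, since in A. nidulans it stands for homogentisate dioxygenase. The genes and lists were chosen with earlier results of these data known. The alternatives were centring, scaling, robust moderation, other fold limits, natural logarithms, the flop sign turned, and each array alone.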

Additional observations from a re-analysis of the deposited data

How the results depend on the processing

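The 10 values of the 4 genes (7 probe means and 3 differences between probes) kept their sign on either array alone, after centring and after scaling to a common spread. Centring moved 1 of them, the aclA mean, to 0.98, by more than its SD, and aclA then missed 2-fold on the flop array. Turning the sign of the flop array, which for the probe differences was chosen after the data were seen, reversed 7: cit1 to 0.31 (probe 1130) and 0.30 (probe 1131), mcsA to 0.055 (probe 3066) and -0.15 (probe 102), acoA probe 2996 to -0.13, the mcsA difference to -0.21 and the acoA difference to 0.21. The other 3 kept their sign but became smaller. The aclA mean was then 0.02, that of acoA probe 534 was 0.075 and the cit1 difference was 0.005. The signs and sizes of the 2-array means therefore rest on both columns running the same way. The sizes of the differences between probes within 1 array, such as 3.32 and 3.73 for mcsA, do not. Their signs on the flop array would turn with that column. If the values are natural logarithms, the cit1 ratios are 18.3-fold and 30.9-fold below equality and that of aclA is 2.77-fold above it.

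With 557 probes past the adjusted threshold, scaling gave 878, adding probes measured on 1 array gave 305, and the flop sign turned gave 0 by limma, with 2 at an unadjusted p under 0.05 against 1035. Probes acuF 532 and hmg1 passed in each of these fits other than the last, with adjusted p-values from 0.00398 to 0.0465 and from 0.00885 to 0.0465, and at 1 in the last. No test is possible on 1 array. By size, 412 probes passed 2-fold on each array. This count was 785 with a limit of 1.5-fold, 157 with 3-fold and 663 with natural logarithms, each of 2265 probes. Read alone, the flip array had 708 of its 3049 values at 2-fold or more, and the flop array 671 of its 2267. No paired analysis was possible because there is 1 group.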

Other observations

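The largest difference among the 388 pairs of probes of 1 gene was that of ANIA_05634, whose probes were at 1.46 and -3.95, a difference of 5.41. It was followed by the pairs of ANIA_04888, at 4.83 and 4.76, in which 1 probe at -3.88 stood against 2 probes at 0.95 and 0.88. These pairs have the form of the mcsA pair, 1 positive and 1 strongly negative probe. They were picked after their values were seen.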
